A study of Homo sapiens with 12 samples.

Results

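RNA of EGFR, the epidermal growth factor receptor, and of its ligands and the feedback genes of the MAPK cascade was examined in HaCaT cells, a human keratinocyte line that grows without limit in culture. The genes were a list of 10 symbols: the receptor EGFR, the ligands AREG, EREG, HBEGF and TGFA, the phosphatases DUSP4, DUSP5 and DUSP6, the inhibitor SPRY2, and PHLDA1. They were found by their symbol in a count table of 16271 genes, and 9 of the 10 had a row there. AREG was not analysed here. The 4 groups had 3 libraries of total RNA each. They were wild type cells without treatment, wild type cells after 8 h with 1,25(OH)2D3, which is vitamin D in its hormone form, and cells labelled as a knockout of VDR, the nuclear receptor for that hormone, each without treatment or with the same 8 h treatment. All cells were grown in DMEM with fetal bovine serum, so growth factors of serum were present in every group. The sources used here do not give the dose, the vehicle, the kind of edit or how many knockout clones there were. The loss of VDR and other differences between the wild type and the knockout cells therefore cannot be told apart. The labels do not tie the 3 libraries of a group to separate cultures. P-values therefore rest on the spread between libraries alone, and that spread may be technical.

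EGFR is a receptor tyrosine kinase of the cell surface. Its ligands TGFA, HBEGF, EREG and AREG are made as membrane proteins and are cut loose by proteases of the ADAM family, and keratinocytes make several of them and respond to their own ligands. The bound receptor signals through RAS, RAF and MEK to the kinase ERK, and in the epidermis it is known for driving proliferation and migration. ERK output includes its own brakes. DUSP4 and DUSP5 are phosphatases that act on MAP kinases in the nucleus, DUSP6 acts on ERK in the cytoplasm, SPRY2 restrains signalling upstream of ERK, and PHLDA1 is a pleckstrin homology-like domain protein whose gene is switched on by growth factors. RNA levels of these genes are not measures of receptor or kinase activity.

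Total counts per library were 11.49 to 12.21 M (M, 1e+06 counts) in untreated wild type cells, 13.13 to 13.89 M in treated ones, 12.61 to 15.99 M in untreated knockout cells and 11.83 to 12.77 M in treated ones. Untreated wild type replicate 3 stood apart. A chi-square of counts over genes, per degree of freedom, was 21.3 and 22.2 against the other libraries of its group, 5.78 between those, and 4.62 to 10.6 in the other groups. RNA of VDR was still counted in the knockout cells, at 73.1, 81.1 and 78.7 CPM without treatment, so its level does not check the label. In untreated wild type cells it was at 99.7 to 107 CPM. The log2 difference between the genotypes was -0.41 ± 0.07 without treatment (SE, n = 3 per group; adjusted p = 5.03e-05, edgeR). With treatment it was 0.22 ± 0.07 (adjusted p = 0.00796, edgeR), as VDR fell in wild type cells (-0.54 ± 0.07, adjusted p = 7.74e-05, edgeR). CYP24A1, the enzyme that breaks the hormone down, rose with treatment in wild type cells (log2 fold change 5.13 ± 0.16 (SE, n = 3 per group), adjusted p = 7.34e-11, edgeR). In knockout cells its change was -0.47 ± 0.15 (adjusted p = 0.106, edgeR). Here and below, CPM are counts per 1e+06 counts of the library after TMM scaling, and a gene was called where its adjusted p was below 0.05.

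Promoters from the RefSeq table (GRCh38.p14) matched 7 of the 9 genes at 11 start sites. DUSP4 and DUSP5 had no entry. The 250 bases before a start site are shown for EGFR, whose RNA differed between the genotypes, and for HBEGF and DUSP6, whose RNA fell with treatment in wild type cells. Capitals mark GC boxes, GGGCGG on either strand. Each sequence is written 5′ to 3′ on the strand of its gene.
EGFR, chr7:55018767-55019016, plus strand: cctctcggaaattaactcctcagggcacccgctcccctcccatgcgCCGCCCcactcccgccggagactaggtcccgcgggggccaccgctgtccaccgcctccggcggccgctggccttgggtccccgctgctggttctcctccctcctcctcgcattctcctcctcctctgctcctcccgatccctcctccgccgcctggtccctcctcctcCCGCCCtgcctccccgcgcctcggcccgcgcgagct
HBEGF, chr5:140346604-140346853, minus strand: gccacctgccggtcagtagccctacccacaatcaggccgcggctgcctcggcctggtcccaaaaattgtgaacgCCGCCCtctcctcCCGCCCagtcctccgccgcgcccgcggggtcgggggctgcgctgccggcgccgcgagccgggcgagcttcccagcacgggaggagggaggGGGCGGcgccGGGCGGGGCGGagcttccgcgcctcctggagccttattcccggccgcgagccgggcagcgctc
DUSP6, chr12:89352502-89352751, minus strand: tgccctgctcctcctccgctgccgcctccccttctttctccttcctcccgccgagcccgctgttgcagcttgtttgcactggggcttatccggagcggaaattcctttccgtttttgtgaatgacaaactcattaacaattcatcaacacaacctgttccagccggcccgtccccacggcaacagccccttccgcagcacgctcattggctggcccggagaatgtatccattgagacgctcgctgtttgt
The EGFR window was 73.6% G and C and held 2 GC boxes, 204 and 36 bases before the start. The HBEGF window was 76.4% G and C and held 5 matches, of which the last 2 overlap each other. The DUSP6 window was 57.2% G and C and held none. EGFR has a further start site in the table, whose window, at chr7:55109589-55109838 and not shown, was 38.8% G and C and held no GC box, 2 AP-1 sites and 2 TATA boxes. Of 35116 promoter windows of this length in the table, 42.6% held a GC box. None of the other motifs searched, on both strands, was found in the 3 windows shown. TATAAA, the TATA box, was in 10.7% of all windows. The AP-1 site TGANTCA was in 6.57% of them. The cyclic AMP element TGACGTCA was in 1.65%. The ETS site CCGGAAGT was in 3.42%. Nuclear receptor half-sites were searched singly: AGGTCA was in 12.1% of windows. Its variant AGTTCA was in 8.8% and the variant GGTTCA in 7.16%. A last variant, GGGTCA, was in 12.1%. A vitamin D type direct repeat, any pair of those half-sites with 3 bases between them, was in 0.0655%. A match or its absence in these letters says nothing of a factor's binding.

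The positions of the genes are those of the deposited gene IDs in GENCODE v29 on GRCh38, and all 9 are protein coding. EGFR (ENSG00000146648) lies at chr7:55019021-55211628 on the plus strand. Of the ligands, TGFA (ENSG00000163235) lies at chr2:70447280-70554193 (minus), HBEGF (ENSG00000113070) at chr5:140332843-140346631 (minus) and EREG (ENSG00000124882) at chr4:74365143-74388751 (plus). Of the phosphatases, DUSP4 (ENSG00000120875) lies at chr8:29333064-29350668 (minus), DUSP5 (ENSG00000138166) at chr10:110497838-110511544 (plus) and DUSP6 (ENSG00000139318) at chr12:89347232-89353271 (minus). SPRY2 (ENSG00000136158) lies at chr13:80335976-80340951 (minus) and PHLDA1 (ENSG00000139289) at chr12:76025447-76033932 (minus). The genes AC011611.3 and AC011611.4 lie antisense over PHLDA1 and have rows of their own in the count table. The sources used here do not say whether counting used the strand, so reads of PHLDA1 and of these genes may not be separated.

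Per length, EGFR was the most abundant of the 9 in every group and EREG the least. In untreated wild type cells the mean levels, in CPM per kilobase of merged exons, were 112.6 for EGFR, 24.3 for PHLDA1, 14.9 for TGFA, 8.87 for DUSP6, 7.78 for DUSP4, 7.41 for HBEGF, 3.79 for DUSP5, 2.67 for SPRY2 and 0.106 for EREG. The libraries of DUSP6 and DUSP4, of DUSP4 and HBEGF, and of DUSP5 and SPRY2 overlapped, so these neighbours were not separated. In treated wild type cells the order below TGFA was DUSP4 (7.72), DUSP5 (5.11), DUSP6 (4.84), HBEGF (4.64) and SPRY2 (3.64), and from DUSP5 down to SPRY2 each overlapped the next. In untreated knockout cells EGFR (43.4) was followed by TGFA (13.6) and PHLDA1 (12.5), which overlapped, and then by HBEGF (9.16), DUSP6 (5.11), DUSP4 (2.75), SPRY2 (1.67), DUSP5 (1.16) and EREG (0.132), with SPRY2 and DUSP5 overlapping. In treated knockout cells HBEGF (8.77) and PHLDA1 (8.44) overlapped below EGFR and TGFA. DUSP5 (0.704) was again next in order above EREG (0.160), without overlap.

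**Figure D1:**
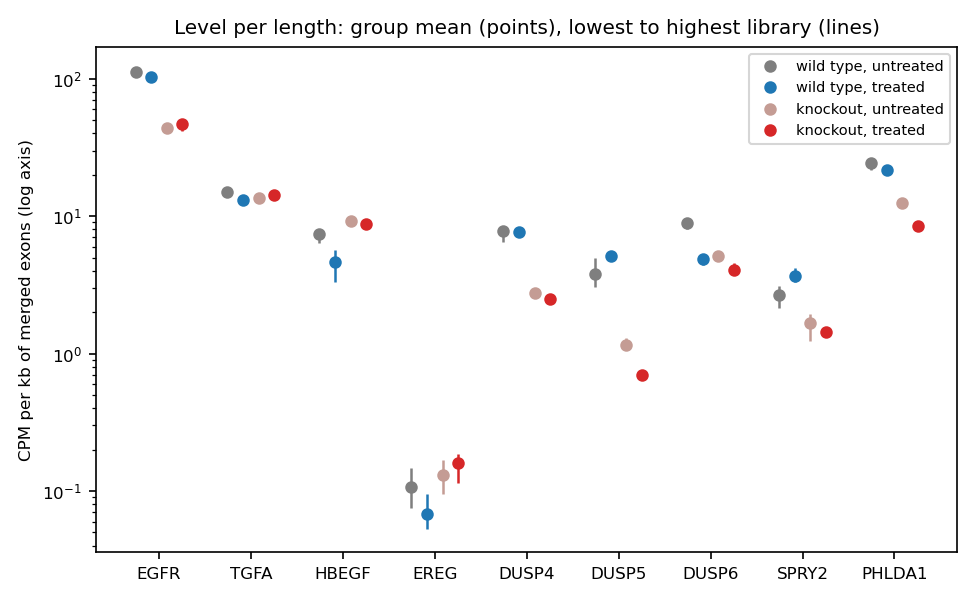
Level of each gene per length in the 4 groups, as CPM per kilobase of merged exons on a log axis. Points are group means and lines run from the lowest to the highest of 3 libraries. EGFR is the highest in every group, and EREG the lowest at 0.0678 to 0.160.

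The first comparison asked which of the genes moved with the hormone in wild type cells. RNA of the ligand HBEGF and of the ERK phosphatase DUSP6 fell, 1.60-fold and 1.83-fold, and RNA of DUSP5 rose 1.35-fold. So 3 of 9 genes passed (1 higher, 2 lower), beside 24.5% of all genes tested (11.5% higher, 13.0% lower). With 9 genes, 3 calls are near that share. The median log2 change of the 9 was -0.18, and that of all 14676 genes tested was 0.00. In 6 of the 9 the 3 treated and the 3 untreated libraries did not overlap. That share was not worked out for all genes, so 6 of 9 cannot be read as a trait of the list. In bulk RNA, fewer cells of a kind and less RNA per cell cannot be told apart.

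EGFR was at 1449, 1442 and 1338 CPM in the untreated wild type libraries and at 1311, 1210 and 1318 CPM in the treated ones. All treated libraries lay below all untreated ones, by little. The change did not pass (log2 -0.14 ± 0.08 (SE, n = 3 per group), adjusted p = 0.214, edgeR), and its approximate 95% interval was -0.31 to 0.03.

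Of the ligands, HBEGF, the heparin-binding ligand, was at 19.4, 23.2 and 24.4 CPM untreated and at 14.9, 17.01 and 10.1 CPM treated. The groups did not overlap, and treated replicate 3 was the lowest. HBEGF fell by 0.68 ± 0.15 on the log2 scale (SE, n = 3 per group; adjusted p = 0.0042, edgeR), and it passed with each of the 6 libraries left out in turn, at -0.84 to -0.49. TGFA, the ligand with the most RNA here, was at 70.4, 73.5 and 77.8 CPM untreated and at 66.7, 64.9 and 62.2 CPM treated. Its groups did not overlap either, and its change of -0.19 ± 0.07 did not pass (adjusted p = 0.0656, edgeR; interval -0.35 to -0.04). EREG was near the limit of counting, with 5, 6 and 10 reads untreated and 4, 7 and 4 treated, and its change of -0.65 ± 0.46 had an interval of -1.63 to 0.34 (adjusted p = 0.333, edgeR). At this depth neither a 2-fold fall of EREG nor no change lay outside the interval.

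Of the phosphatases, DUSP6 was at 37.4, 44.9 and 41.0 CPM untreated and at 23.7, 23.0 and 20.5 CPM treated. The lowest untreated library was well above the highest treated one. DUSP6 fell by 0.87 ± 0.10 on the log2 scale (SE, n = 3 per group; adjusted p = 2.64e-05, edgeR), the smallest adjusted p among the 9, and it passed with each library left out. DUSP5 moved the other way, from 8.88, 12.9 and 7.94 CPM untreated to 13.2, 13.4 and 13.4 CPM treated. Untreated replicate 2 almost reached the treated level, and the rise only just passed (0.44 ± 0.15, adjusted p = 0.0463, edgeR). It did not pass with any 1 of the other 5 libraries left out (adjusted p 0.0985 to 0.196, edgeR), with DESeq2 (adjusted p = 0.0713) or in a fit of the wild type libraries alone (adjusted p = 0.108, edgeR). DUSP4 was at 61.5, 60.5 and 47.4 CPM untreated and at 59.8, 55.4 and 52.9 CPM treated, groups that overlapped, with a change of -0.01 ± 0.09 and an interval of -0.21 to 0.19.

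SPRY2 was at 9.40, 8.41 and 6.51 CPM untreated and at 10.4, 12.7 and 10.1 CPM treated. The groups did not overlap, and the change of 0.45 ± 0.17 (SE, n = 3 per group) did not pass (adjusted p = 0.0658, edgeR; interval 0.09 to 0.81). With untreated replicate 1 left out it did (0.57, adjusted p = 0.0416, edgeR). PHLDA1 was at 207, 208 and 174 CPM untreated and at 169, 164 and 187 CPM treated. Here untreated replicate 3, the library that stood apart, lay among the treated ones. The change of PHLDA1 was -0.18 ± 0.08 (adjusted p = 0.112, edgeR), and without that library it passed (-0.27, adjusted p = 0.00443, edgeR).

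**Figure D2:**
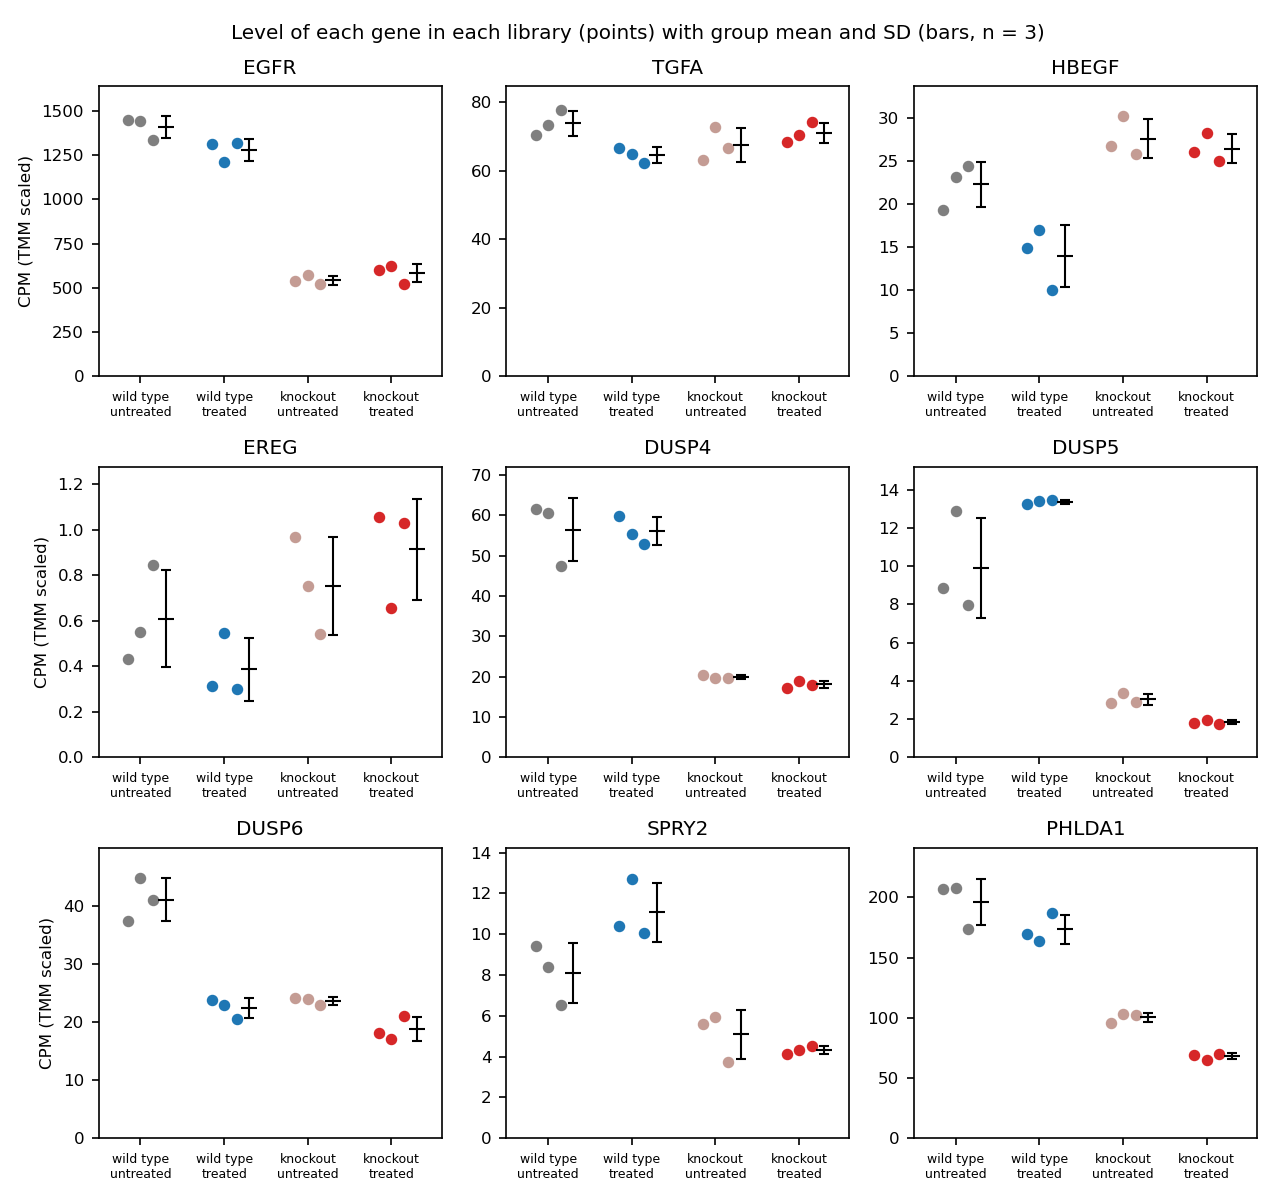
Level of each gene in each library, in TMM-scaled CPM on linear axes that start at 0. Points are libraries, and the horizontal mark and bar beside them are the group mean and SD (n = 3). DUSP6 is at 37.4 to 44.9 CPM in untreated wild type cells and at 17.2 to 24.2 CPM in the other 3 groups. EGFR, DUSP4, DUSP5, SPRY2 and PHLDA1 are lower in every knockout library than in any wild type one, and HBEGF is higher. SPRY2 and HBEGF separate by little.

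The same treatment was then compared in the knockout cells. PHLDA1 was the 1 gene of 9 that passed, 1.48-fold lower in treated cells, beside 2.55% of all genes tested (0.913% higher, 1.64% lower). The median log2 change of the 9 was -0.14, against 0.00 for all genes. Of all genes called, 35.8% were higher, and 20% with library size alone for scaling. PHLDA1 was at 95.9, 103 and 102 CPM untreated and at 68.9, 65.3 and 69.9 CPM treated, with no overlap. It fell by 0.56 ± 0.08 on the log2 scale (SE, n = 3 per group; adjusted p = 0.00447, edgeR), and with treated replicate 2 left out it did not pass (-0.53, adjusted p = 0.0656, edgeR).

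Among the phosphatases, DUSP5 was at 2.84, 3.38 and 2.88 CPM untreated and at 1.81, 1.97 and 1.74 CPM treated in the knockout. DUSP6 was at 24.2, 23.9 and 22.9 CPM untreated and at 18.2, 17.2 and 21.1 CPM treated. Neither gene's groups overlapped, treated cells being lower, and neither passed: DUSP5 changed by -0.71 ± 0.21 (SE, n = 3 per group; adjusted p = 0.07, edgeR) and DUSP6 by -0.33 ± 0.10 (adjusted p = 0.0799, edgeR). Fitted on the knockout libraries alone, both passed (adjusted p = 0.043 and 0.0373, edgeR), which made 3 of the 9 genes. That fit called 1764 of the 14676 genes tested. DUSP4 was at 20.5, 19.7 and 19.7 CPM untreated and at 17.25, 19.0 and 18.0 CPM treated, just apart, with a change of -0.14 ± 0.10 (adjusted p = 0.435, edgeR).

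The receptor and the ligands gave no call in the knockout. EGFR was at 538, 572 and 521 CPM untreated and at 600.05, 622 and 524 CPM treated, overlapping, with an interval of -0.07 to 0.27. HBEGF was at 26.8, 30.3 and 25.9 CPM untreated and at 26.1, 28.3 and 25.0 CPM treated, and its interval of -0.36 to 0.24 lay above the estimate of -0.68 in wild type cells. TGFA was at 63.1, 72.8 and 66.6 CPM and then at 68.4, 70.5 and 74.2 CPM, with an interval of -0.08 to 0.23. EREG had 15, 10 and 9 reads untreated and 14, 8 and 13 treated, with an interval of -0.47 to 1.05. SPRY2 was at 5.61, 5.93 and 3.72 CPM untreated and at 4.14, 4.35 and 4.51 CPM treated, with an interval of -0.62 to 0.18.

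Whether the response itself differed between the genotypes was tested as the response in knockout cells minus that in wild type cells. It uses the libraries of both treatment comparisons, so it is not separate evidence. The difference passed for 4 of the 9 genes (2 higher, 2 lower in the knockout), beside 26.3% of all genes tested (13.8% higher, 12.5% lower). The median was 0.24 over the 9 and -0.01 over all genes. For DUSP5 the difference was -1.15 ± 0.26 (SE, n = 3 per group; adjusted p = 0.00399, edgeR), with values that rose in wild type cells and were lower with treatment in the knockout. For DUSP6 it was 0.54 ± 0.14 (adjusted p = 0.0104, edgeR), the drop being larger in wild type cells. Both passed with each of the 12 libraries left out. For PHLDA1 it was -0.38 ± 0.11 (adjusted p = 0.0204, edgeR), and it did not pass without treated wild type replicate 3 (adjusted p = 0.0662, edgeR) or treated knockout replicate 2 (adjusted p = 0.057, edgeR). For HBEGF it was 0.61 ± 0.21 (adjusted p = 0.0377, edgeR), and it passed in 3 of the 12 fits that left out 1 library, those without untreated wild type replicate 1, treated wild type replicate 2 or untreated knockout replicate 2 (other fits up to adjusted p = 0.0951, edgeR). For SPRY2 the difference was -0.67 ± 0.26 (adjusted p = 0.062, edgeR; interval -1.21 to -0.13). For EGFR, TGFA, EREG and DUSP4 it did not pass either, at 0.24, 0.27, 0.94 and -0.13.

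**Figure D3:**
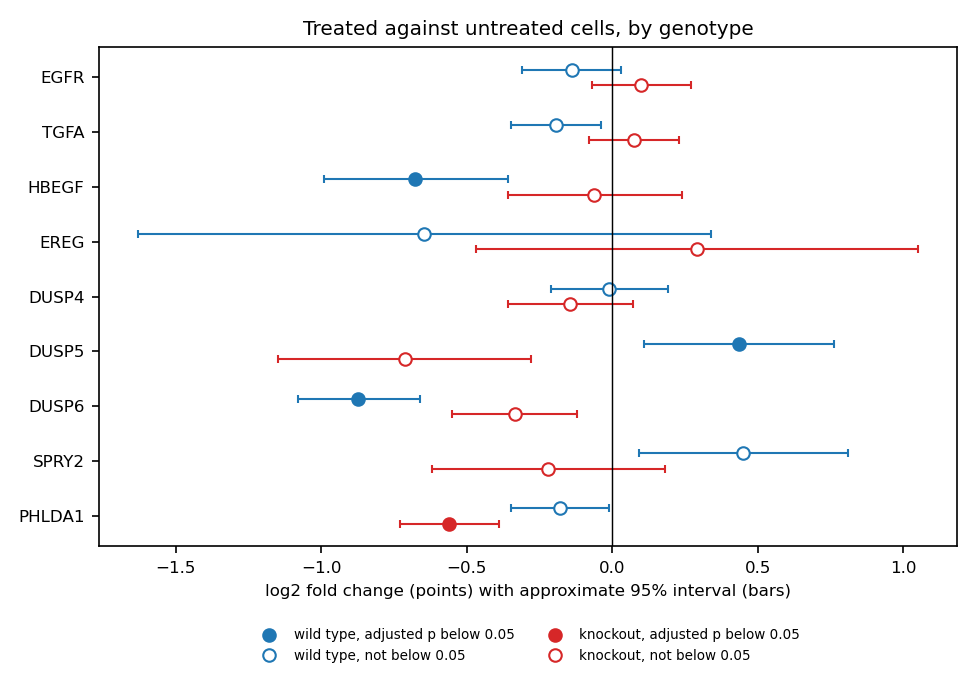
Log2 fold change of treated against untreated cells for each gene (points) with its approximate 95% interval (bars), wild type in blue and knockout in red, 3 libraries per group. Filled points passed: HBEGF (-0.68), DUSP6 (-0.87) and DUSP5 (0.44) in wild type cells and PHLDA1 (-0.56) in knockout cells.

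The genotypes were compared within each treatment. Without treatment, RNA of EGFR was 2.59-fold lower in the knockout cells, and that of DUSP5, DUSP4, PHLDA1, DUSP6 and SPRY2 was 3.26-, 2.83-, 1.95-, 1.73- and 1.60-fold lower. Thus 6 of 9 passed, all lower, beside 69.7% of all genes tested, of which 34.2% were lower and 35.5% higher. The median log2 difference of the 9 was -0.79, against 0.01 for all genes. The 3 ligands did not pass. The share that passed, 6 of 9, is near that of all genes.

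The receptor stood at 521 to 572 CPM in the untreated knockout libraries, well below the lowest wild type library at 1338 CPM. Its difference was -1.37 ± 0.08 (SE, n = 3 per group; adjusted p = 3.12e-10, edgeR). The phosphatases DUSP5 (-1.71 ± 0.17, adjusted p = 1.6e-07, edgeR) and DUSP4 (-1.5 ± 0.10, adjusted p = 1.11e-09, edgeR) differed by more, DUSP5 from few reads. PHLDA1 (-0.97 ± 0.08), DUSP6 (-0.79 ± 0.10) and SPRY2 (-0.68 ± 0.18) passed at adjusted p = 1.71e-08, 1.84e-06 and 0.00302 (edgeR). In all 6 genes no knockout library reached the lowest wild type library. These are the 6 that passed, so their separation adds little to the calls. The share of all genes that separated so was not worked out.

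The ligands went differently. HBEGF was higher in each untreated knockout library, at 25.9 to 30.3 CPM against 19.4 to 24.4 CPM, and did not pass (0.31 ± 0.14 (SE, n = 3 per group), adjusted p = 0.0693, edgeR). With library size alone for scaling it did (0.43, adjusted p = 0.016, edgeR), a scaling that moves the median of all genes from 0.01 to 0.13. TGFA overlapped between the genotypes (-0.13 ± 0.07, interval -0.29 to 0.02), and so did EREG (0.29 ± 0.40, interval -0.55 to 1.13). TGFA passed with untreated knockout replicate 2 left out (-0.19, adjusted p = 0.0368, edgeR).

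Between the treated cells 8 of 9 genes passed, 2 higher and 6 lower in the knockout, beside 75.9% of all genes tested (38.4% higher, 37.4% lower). The median of the 9 was -1.14, against 0.02 for all genes. DUSP5 was 7.24-fold lower (-2.86 ± 0.18 (SE, n = 3 per group), adjusted p = 5.52e-10, edgeR), the largest of the genotype differences among the 9, with 1.74 to 1.97 CPM against 13.2 to 13.4 CPM. DUSP4, PHLDA1, SPRY2 and EGFR were 3.10-, 2.55-, 2.55- and 2.20-fold lower. HBEGF was 1.89-fold higher in the knockout (0.92 ± 0.15, adjusted p = 3.02e-05, edgeR), and no treated wild type library reached the lowest knockout one. EREG was 2.34-fold higher (1.23 ± 0.42, adjusted p = 0.0142, edgeR) on 4 to 14 reads per library, and did not pass without treated wild type replicate 3 (adjusted p = 0.0541, edgeR). DUSP6 overlapped between the treated genotypes and was 1.19-fold lower (-0.25 ± 0.10, adjusted p = 0.0324, edgeR). That call was lost without treated wild type replicate 1 or 2 or treated knockout replicate 1 or 2 (adjusted p 0.0821 to 0.133, edgeR), and with library size alone for scaling (-0.15, adjusted p = 0.207, edgeR). TGFA was higher in each treated knockout library than in any treated wild type one and did not pass (0.14 ± 0.07, adjusted p = 0.101, edgeR). It passed with library size alone (0.24, adjusted p = 0.00903, edgeR).

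**Figure D4:**
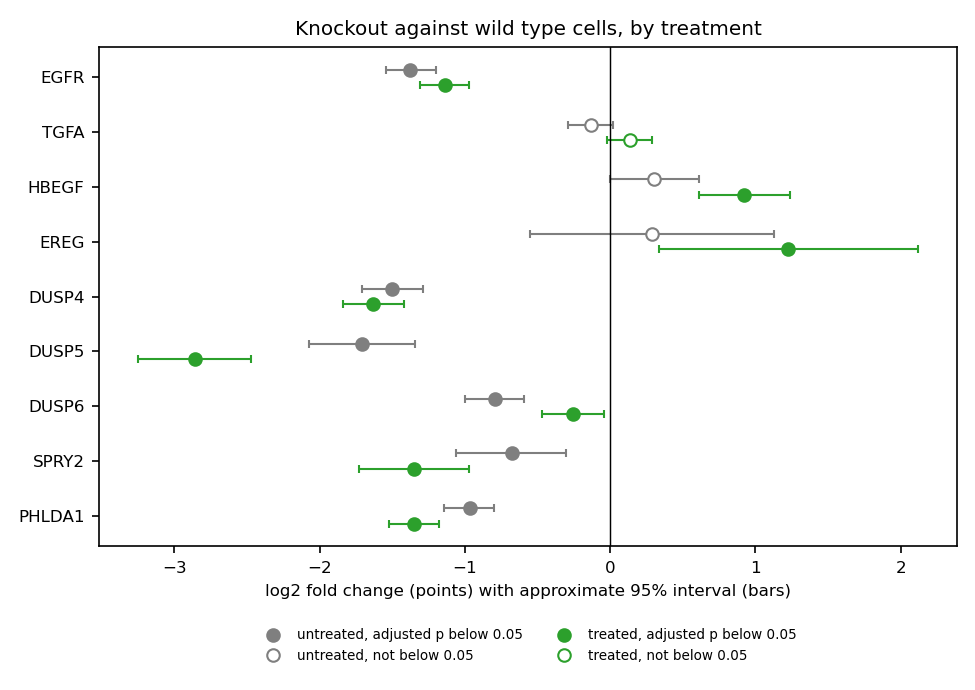
Log2 fold change of knockout against wild type cells for each gene (points) with its approximate 95% interval (bars), untreated in grey and treated in green, 3 libraries per group. Filled points passed. EGFR, DUSP4, DUSP5, DUSP6, SPRY2 and PHLDA1 lie below 0 in both (-0.25 to -2.86). HBEGF (0.31 and 0.92) and EREG (0.29 and 1.23) lie above, and TGFA (-0.13 and 0.14) on either side.

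Markers of the labelled cell type moved with the genotype. Of 10 keratinocyte markers, all were in the table, and 8 were lower and 1 (DSG3) higher in the untreated knockout cells, with a median of -1.40. Of all genes tested, 34.2% were lower and 35.5% higher there, with a median of 0.01. The summed level of the markers was 4110.2 to 5162 CPM in untreated and 4397 to 4528 CPM in treated wild type cells, and 1760.3 to 1778 and 1562 to 1717 CPM in the knockout. KRT5 and KRT14, keratins of basal keratinocytes, differed by -1.16 ± 0.11 and -1.64 ± 0.10 (SE, n = 3 per group). Keratinocyte markers also moved with treatment. In the knockout KRT14 (-0.87 ± 0.10, adjusted p = 0.00169, edgeR) and KRT5 (-0.48 ± 0.12, adjusted p = 0.046, edgeR) fell, and the other 8 markers did not pass. Of all genes tested, 2.55% were called there. In wild type cells 2 of the 10 rose and 2 fell, beside 11.5% higher and 13.0% lower of all genes tested. The part of these shifts in the changes of the 9 genes was not tested. Of markers of other cells, 3 of 7 fibroblast genes summed to 1.96 to 20.6 CPM, and COL1A2, DCN, PDGFRA and PDGFRB had no row. Of 5 melanocyte, 5 endothelial and 6 leukocyte markers, 1 each had a row (PMEL, CDH5 and CD68), at 0.515 to 1.56, 2.62 to 8.19 and 3.56 to 15.1 CPM. CDH5 (0.82 ± 0.21, adjusted p = 0.00904, edgeR) and CD68 (0.58 ± 0.16, adjusted p = 0.0163, edgeR) rose with treatment in wild type cells, and their responses differed in the knockout (-1.14 and -0.83, adjusted p = 0.0102 and 0.0231, edgeR). Their part in the results was not tested. The other defining markers of these cells, such as PECAM1, VWF, PTPRC and CD14, had no row.

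The rest of the pathway was read from 3 lists. The first holds other receptors, ligands and genes of ligand shedding, of which 11 of 16 were tested. EGF, BTC and LRIG1 were not analysed here, and ERBB4 and EPGN were below the filter on low counts. With treatment in wild type cells 2 rose and 3 fell, beside 24.5% of all genes called. ERBB2, the receptor that pairs with EGFR, rose (log2 0.39 ± 0.08 (SE, n = 3 per group), adjusted p = 0.00192, edgeR), as did RHBDF1, an inactive rhomboid that serves ADAM17 (0.56 ± 0.15, adjusted p = 0.0146, edgeR). The neuregulins NRG1 (-0.40 ± 0.09, adjusted p = 0.00593, edgeR) and NRG4 (-1.01 ± 0.24, adjusted p = 0.00749, edgeR), ligands of the sister receptors ERBB3 and ERBB4, fell, as did NRG2. The list's median was 0.14. In the untreated knockout 5 were higher and 5 lower than in wild type cells (median 0.04), beside 69.7% of all genes called: NRG4 was higher (2.24 ± 0.20), and NRG1 (-0.99 ± 0.09), NRG2 (-1.41 ± 0.20) and RHBDF1 (-1.29 ± 0.15) were lower. In treated cells 4 were higher and 5 lower (median 0.00), beside 75.9% of all genes.

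The second list holds 21 genes from RAS to ERK, all tested. With treatment in wild type cells 2 rose and 0 fell in edgeR (3 higher and 1 lower at an unadjusted p below 0.05; 2 and 0 with DESeq2), with a median of 0.03. These were KSR1, a scaffold of the cascade (0.56 ± 0.11 (SE, n = 3 per group), adjusted p = 0.00176, edgeR), and the kinase ARAF (0.24 ± 0.08, adjusted p = 0.0426, edgeR). Of all genes, 24.5% were called in this comparison. ARAF passed in 1 of the 6 fits that left out a library, the one without untreated replicate 3. It did not pass with library size alone (adjusted p = 0.0518, edgeR) or with the wild type libraries alone (adjusted p = 0.123, edgeR), which left 1 call in the list. In the untreated knockout 6 were higher and 5 lower (median 0.00), so 11 of 21 were called beside 69.7% of all genes. The exchange factors SOS2 (1.40 ± 0.14) and SOS1 (0.52 ± 0.08), which load RAS with GTP, were higher, and the kinases MAP2K2 (-0.91 ± 0.08) and RPS6KA1 (-0.81 ± 0.13) were lower. In treated cells 7 were higher and 7 lower (median -0.03; 75.9% of all genes called), and 4 and 5 without treated wild type replicate 2 or treated knockout replicate 1.

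The third list holds other feedback genes and genes of ERK output, of which 22 of 26 were tested. DUSP8, ETV1 and VGF were not analysed here, and SPRY1 was below the filter. With treatment in wild type cells 1 rose and 5 fell, beside 24.5% of all genes called, with a median of -0.16. DUSP10, a phosphatase of stress-activated kinases, rose from a mean of 38.3 to 86.7 CPM (1.18 ± 0.09 (SE, n = 3 per group), adjusted p = 4.35e-07, edgeR). IER3, an immediate early gene (-0.68 ± 0.10), ERRFI1, which binds and inhibits EGFR (-0.52 ± 0.13), and the ephrin receptor EPHA4 (-0.50 ± 0.13) fell at adjusted p = 0.000233, 0.00645 and 0.00951 (edgeR). EPHA4 did not pass without treated replicate 3 (adjusted p = 0.0524, edgeR). Without untreated replicate 3 the count was 1 rise and 9 falls, and without treated replicate 3 it was 1 and 2. In the untreated knockout 5 were higher and 14 lower, with a median of -0.60 against 0.01 for all genes, of which 35.5% were called higher and 34.2% lower. FOSL1, an AP-1 subunit (-2.45 ± 0.11), IL11, a cytokine (-2.93 ± 0.19), and CCND1, cyclin D1 (-1.42 ± 0.10), were lower, and DUSP10 was higher (2.83 ± 0.09), at a mean of 272 CPM. In treated cells again 5 were higher and 14 lower (median -0.55; 38.4% and 37.4% of all genes), with values of -2.25, -3.36, -1.43 and 1.82 for the same 4 genes.

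With treatment in the knockout cells no gene of the 3 lists passed in the edgeR fit of all 12 libraries, beside 2.55% of all genes. At an unadjusted p below 0.05 there were 3 of 11, 4 of 21 and 8 of 22. DESeq2 called 1, 0 and 1, beside 911 of all genes. Fitted on the knockout libraries alone, edgeR called 2 of the first list (1 higher, 1 lower) and 4 of the third, all lower. That fit called 1764 of the 14676 genes tested. The medians were 0.04, 0.01 and -0.12. The difference of responses passed for 2 genes higher and 2 lower of the first list, 0 and 2 of the second (2 and 2 at an unadjusted p below 0.05; 0 and 2 with DESeq2), and 1 and 2 of the third, beside 26.3% of all genes.

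**Figure D5:**
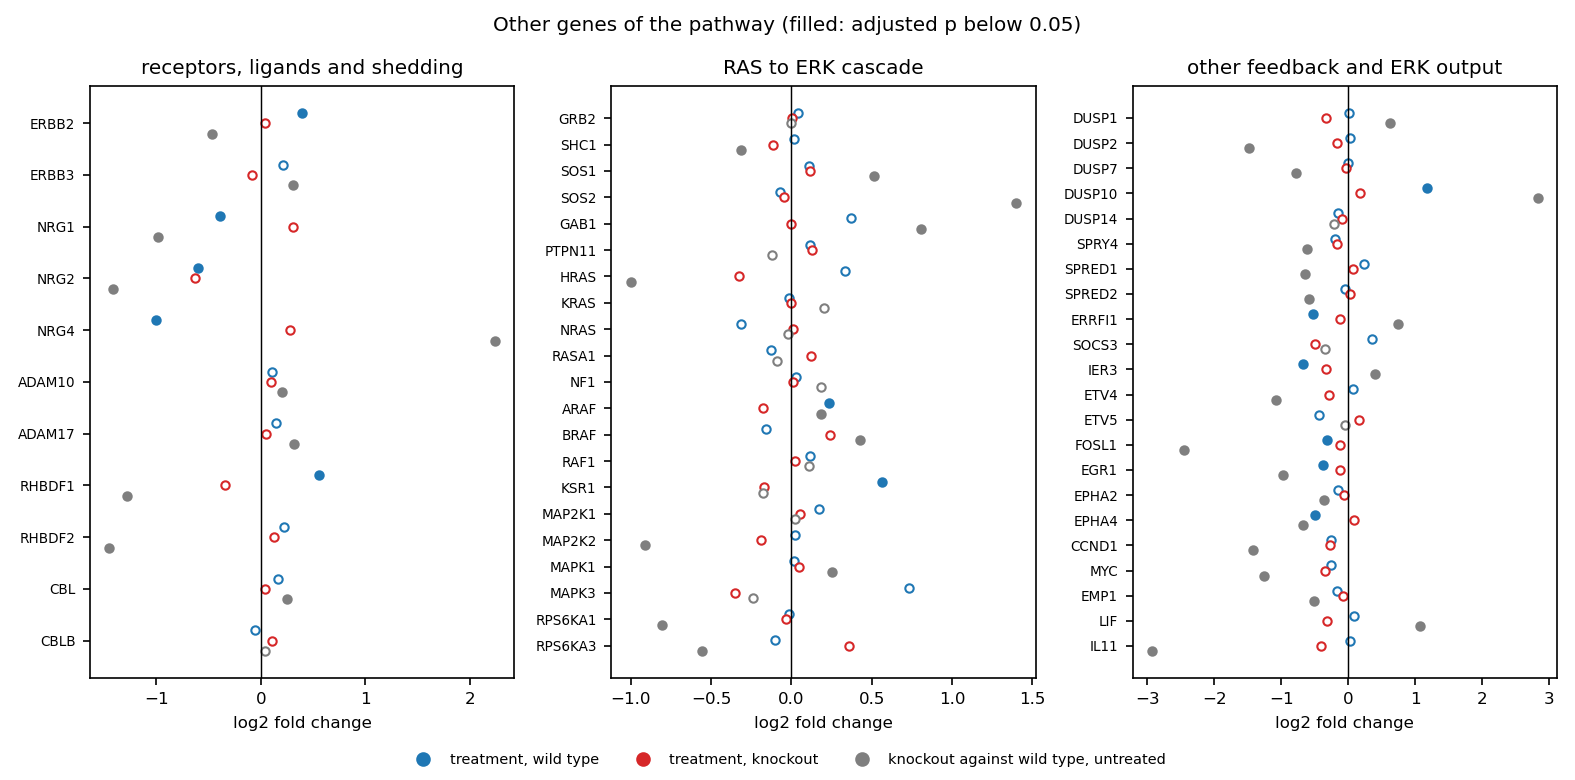
Log2 fold change of each tested gene of the 3 pathway lists with treatment in wild type cells (blue), with treatment in knockout cells (red) and in untreated knockout against wild type cells (grey), 3 libraries per group. Filled points have an adjusted p below 0.05. No red point is filled, and the grey points reach from IL11 (-2.93) to DUSP10 (2.83).

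The authors' deposited tables of enriched gene ontology terms hold some of the genes. In the authors' deposited table for genes lower with treatment in wild type cells, HBEGF, with NRG1, NRG2, NRG4 and ERRFI1, is among 14 of 840 listed genes in negative regulation of ERBB signaling (the authors' adjusted p = 0.00343). In the same authors' deposited table DUSP6 is among 27 genes in positive regulation of MAP kinase activity (the authors' adjusted p = 0.0915). In the authors' deposited table for genes lower in untreated knockout cells, EGFR, DUSP5, DUSP6 and SPRY2 are among 138 of 3405 in positive regulation of the MAPK cascade (the authors' adjusted p = 0.011). EGFR, DUSP6 and SPRY2 are also among 209 in receptor tyrosine kinase signaling there (the authors' deposited table, adjusted p = 1.99e-05).

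The genes whose pattern over the 12 libraries was most like that of DUSP6 and of EGFR were found by the root mean square difference of log2 CPM, each gene centred on its own mean. For DUSP6 these were SC22CB-1E7.1 (0.18), ZFP36L1 (0.19) and IL1RN (0.20), against a median of 0.53 over all genes. IL1RN had mean levels of 33.7, 22.7, 23.3 and 18.8 CPM in untreated and treated wild type and untreated and treated knockout cells, beside 41.1, 22.4, 23.7 and 18.8 CPM for DUSP6. For EGFR they were MED16, GARS and KIRREL (0.08 each), against a median of 0.68. MED16 had means of 116, 104, 47.5 and 49.7 CPM, beside 1409.5, 1279.6, 544 and 582 CPM for EGFR. These likenesses are descriptions over libraries that share the 4 groups.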

How the data were processed

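Total RNA of HaCaT cells, 3 libraries in each of 4 groups taken from the labels, was measured by sequencing. The authors deposited raw read counts per gene for 16271 gene IDs with symbols. They also deposited CPM, which equal each count divided by its library's total, per 1e+06, to within 0.005. The authors' deposited enrichment tables give p-values, raw and adjusted, for each term, and as other values the count of listed genes in it, per the file headers. Which group was higher in them was settled by matching their genes to the fold changes. The submitters' processing notes name BWA 0.5.9 and mm9, a mouse build, while the gene IDs are human. The sources used here do not give the build, annotation and counting tool actually used, so how these bear on single genes was not tested.

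The counts went into edgeR 4.0.16 in R 4.3.3, with TMM scaling, filterByExpr and the robust quasi-likelihood F test. TMM factors were 0.950 to 0.978 in the wild type and 1.030 to 1.057 in the knockout libraries, so the scaling differed by genotype. All 12 libraries shared 1 fit (common dispersion 0.0117). The filter left 14676 genes and set aside 1595; all 9 genes of the list in the table passed it. P-values were adjusted by Benjamini-Hochberg over all genes tested in each of 5 comparisons. An SE is the absolute log2 change over the root of F, and intervals (95%) use the t quantile of its degrees of freedom. Levels per length used merged exons of GENCODE v29. Alternatives were other scalings and filters, DESeq2 1.42.0, limma 3.58.1 on log2(deposited CPM + 1), a stricter threshold, the groups compared on their own, a block for the replicate number, and each library left out. The labels do not say whether replicate numbers pair libraries, so the main fit had no such block.

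The genes, lists and tests were chosen with earlier results of these data known. Named genes are all those of the list in each comparison, up to 4 called genes per pathway list and comparison with the smallest adjusted p, the 3 genes most like DUSP6 and EGFR in pattern, and VDR and CYP24A1. NRG2 in treated wild type cells is named beyond that rule, after its value was seen. The same rule asked for genes like AREG, which was not analysed here.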

Additional observations from a re-analysis of the deposited data

Results flagged for a closer look

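The response to treatment differed between knockout and wild type cells, by the test of the difference itself in edgeR with Benjamini-Hochberg adjustment, for 13 genes, given as the response in knockout minus that in wild type cells on the log2 scale with its SE (3 libraries per group). The 13 came from the 9 genes and from 11, 21 and 22 tested genes of the pathway lists. Of all genes tested, 26.3% were called, so the 13 cannot be read as a trait of the pathway. Those among the 9 genes were HBEGF (0.61 ± 0.21, adjusted p = 0.0377), DUSP6 (0.54 ± 0.14, adjusted p = 0.0104), DUSP5 (-1.15 ± 0.26, adjusted p = 0.00399) and PHLDA1 (-0.38 ± 0.11, adjusted p = 0.0204). PHLDA1 was the one of them whose fall passed in the knockout and not in wild type cells. HBEGF passed in 3 and PHLDA1 in 10 of the 12 fits that left out 1 library.

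Of the receptor and ligand list, NRG1 (0.70 ± 0.13, adjusted p = 0.00132, edgeR) and NRG4 (1.29 ± 0.29, adjusted p = 0.00639, edgeR) had a higher response in the knockout. RHBDF1 (-0.91 ± 0.22, adjusted p = 0.00867, edgeR) and ERBB2 (-0.36 ± 0.11, adjusted p = 0.0257, edgeR) had a lower one. NRG1 was at means of 1188 CPM untreated and 903 CPM treated in wild type cells, and 598 and 740.03 CPM in the knockout, where its own change did not pass. Of the cascade, KSR1 (-0.73 ± 0.16, adjusted p = 0.00304, edgeR) and ARAF (-0.41 ± 0.11, adjusted p = 0.0145, edgeR) had a lower response. Of the feedback and output list, DUSP10 (-1.0 ± 0.12, adjusted p = 6.09e-05, edgeR) and SOCS3 (-0.86 ± 0.24, adjusted p = 0.0137, edgeR) had a lower response and EPHA4 a higher one (0.59 ± 0.18, adjusted p = 0.025, edgeR). Neither ERBB2 nor EPHA4 passed when untreated knockout replicate 1 or treated wild type replicate 1 or 3 was left out (adjusted p 0.0621 to 0.0728, edgeR). The same held for both without treated knockout replicate 2, for ERBB2 without treated knockout replicate 3, and for EPHA4 without untreated knockout replicate 2 or treated knockout replicate 1 (adjusted p 0.0507 to 0.0716, edgeR).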

How the results depend on the processing

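Over the alternatives, 633 of 675 fold changes of the 9 genes kept their side of the threshold, 26 no longer passed, 16 newly passed, and 0 turned their sign while called. For the other named genes these were 775, 20, 2 and 0 of 797. Signs were compared only where a change was called. Changes near 0 that did not pass could turn, as DUSP4 did with treatment in wild type cells (-0.13 to 0.06 with 1 library left out). Genes called with treatment in wild type cells numbered 3602, with 1810 at an adjusted p below 0.01 and 2210 with the compared groups alone. With treatment in the knockout there were 374, with 911 by DESeq2, 36 below 0.01 and 1764 with the groups alone, and 3 rather than 1 of the 9 genes in that last fit. The difference of responses gave 3857 genes and 4 of the 9, and 1921 and 1 below 0.01. With the replicate block, genes called with treatment in the knockout fell to 143, and ARAF no longer passed in wild type cells (0.24, adjusted p = 0.0589, edgeR), while SPRY2 passed in wild type cells (0.45, adjusted p = 0.0444, edgeR) and in the difference (-0.66, adjusted p = 0.0466, edgeR). Of 18 pairs of libraries with the same number, 1 had deviations correlated above 0.1 (-0.18 to 0.12) and 4 correlated best with their own number. These include each pair of untreated wild type and untreated knockout libraries (0.020, 0.078 and 0.121). Correlations this weak, of deviations from means of 3 libraries, cannot settle whether the numbers pair libraries. With 1 library left out, genes called were 2123 to 3794 with treatment in wild type, 9 to 283 in the knockout, 9484 to 10678 and 10522 to 10694 between untreated and treated genotypes, and 2801 to 4328 for the difference. The lowest in wild type cells were 2123 and 2398, without treated replicate 3 or 1, and in the knockout 9 and 14, without treated replicate 2 or untreated replicate 1, while leaving out untreated replicate 3 gave 137 there and treated replicate 1 or 3 gave 94 or 62. Of the 9 genes, 2 to 3, 0 to 1, 6 to 7, 7 to 8 and 2 to 5 were then called. The lowest counts of the 9 in the difference came without treated wild type replicate 3 and treated knockout replicate 2. Without untreated wild type replicate 3 the difference passed for EGFR (0.29, adjusted p = 0.0254, edgeR), without untreated knockout replicate 2 for TGFA (0.33, adjusted p = 0.0301, edgeR), and without untreated wild type replicate 1 or untreated knockout replicate 3 for SPRY2 (-0.79 and -0.86, adjusted p = 0.0369 and 0.0151, edgeR). In the RAS to ERK list, 1 gene was called with treatment in wild type cells without untreated replicate 1 or any 1 treated library, and without untreated knockout replicate 3 1 was called with treatment in the knockout and 4 in the difference. In the feedback list, 5 were called in the difference without untreated wild type replicate 3. Below 0.01, the receptor list gave 3 with treatment in wild type and 5 between treated genotypes, the RAS to ERK list 1, 9 and, in the difference, 1, and the feedback list 1 in the difference. CYP24A1 in the knockout passed by DESeq2 (-0.47, adjusted p = 0.0307) and without untreated replicate 2 (-0.67, adjusted p = 0.00497, edgeR). By limma on log2(deposited CPM + 1), HBEGF passed between untreated genotypes (0.42, adjusted p = 0.0181) and TGFA between treated ones (0.24, adjusted p = 0.00979), and DUSP6 did not (-0.14, adjusted p = 0.192). Deposited CPM are scaled by library size alone, so these shifts are not separate from those of that scaling in edgeR. HBEGF also passed between untreated genotypes with the groups alone (adjusted p = 0.0432, edgeR). Per length of the longest transcript, EGFR was at 144, TGFA at 17.1, DUSP4 at 10.2 and HBEGF at 9.37 CPM per kilobase in untreated wild type cells. The causes of these shifts were not tested. EREG, at 4 to 15 reads per library, limits what depth can show of it.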
